A study of Homo sapiens with 6 samples.

Results

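TFEC, MITF, TFEB and TFE3 form the MiT/TFE family of transcription factors, and every probe set annotated to exactly 1 of these 4 symbols was taken, which gave 12 probe sets of the 54613 on the array and 4 genes of 19775. The members were chosen with their values on these arrays in view, both between treatments and between replicate numbers, so their differences are a description, and nothing is read from a call of a member. The RNA came from MHCC97H cells, an established human hepatocellular carcinoma (HCC) line, that were heated at 47 °C to mimic sublethal ablation and kept as residual cells. In the POSTN group (3 samples) the residual cells received 100 ng/mL recombinant POSTN (periostin, a matrix protein that binds integrins) for 24 h, and in the control group (3 samples) they received 0 ng/mL for 24 h. Heat treatment and the cell line were shared by both groups, and no unheated cells were included. Whether the 3 samples of a group were separate cultures is not stated in the labels, so the spread between them may be technical. Each sample was read on 1 Affymetrix Human Genome U133 Plus 2.0 array, and all values below are log2 signals of a probe set, which can be compared between arrays but not between probe sets.

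MiT/TFE proteins are basic helix-loop-helix leucine zipper factors that bind DNA as homodimers or as heterodimers with each other. TFEB and TFE3 switch on genes of lysosomes and autophagy, and the kinase complex mTORC1 holds them in the cytoplasm while nutrients are plentiful. MITF is the master regulator of melanocytes, and TFEC, the least studied member, is best known from macrophages of the mouse.

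The family binds E-boxes with the letters CACGTG, and the longer form TCACGTGA is the core of the element shared by many lysosomal genes. Both motifs read the same on either strand, and each TCACGTGA holds a CACGTG. In RefSeq promoters (250 bases before to 50 after an annotated start, GRCh38.p14), CACGTG occurred in 10.9% and TCACGTGA in 1.65% of 15813 protein-coding genes. CACGTG occurred in 7 of 17 lysosomal enzyme genes (41.2%) and in 6 of 15 genes of the lysosomal membrane and proton pump (40%) that had a promoter in the table, and TCACGTGA in 4 of 17 (23.5%) and 3 of 15 (20%). The element is known from genes of this kind, so these higher shares are background and no result of these arrays. None of the 2 windows of TFEC, the 3 of MITF, the 3 of TFEB and the 1 of TFE3 held either motif. The sites below, with the motif in capitals, are shown because they are the sequence the family is known to bind in genes whose signals are given further on. They are a part of the sites found. GAA and MCOLN1 each held another TCACGTGA, and the sites of other listed genes are not printed.
CTSA, chr20:45891300-45891325, plus strand: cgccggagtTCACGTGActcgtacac
GAA, chr17:80101540-80101565, plus strand: tcccgccggTCACGTGAcccgcctct
SCPEP1, chr17:56978094-56978119, plus strand: ccgcctccgTCACGTGAtggggcgcc
MCOLN1, chr19:7522573-7522598, plus strand: cagaggcggTCACGTGAggggctctg
ATP6V0D1, chr16:67481201-67481226, minus strand: cccttatggTCACGTGAggcgcttgc
TSC2, chr16:2047861-2047886, plus strand: gcggccccgTCACGTGAtgcaaggat

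A signal was called above background where its mean over the arrays exceeded 5.98, the 95th percentile of 107 olfactory receptor probe sets, since the table holds no detection calls. By that level 47.7% to 49.7% of all probe sets on each array, and 6 of the 12 family probe sets, were above background. These 6 were the 3 of TFEC and 3 of the 4 of TFE3, and each was above it on all 6 arrays. None of the 3 MITF and none of the 2 TFEB probe sets was. Of the markers of the line, 8 of 10 measured hepatocyte and hepatoma genes were above background, with AFP at 8.85 to 9.16 and KRT8 at 13.86 to 14.13 on the 6 arrays. None of 5 melanocyte markers, 1 of 9 macrophage markers (ITGAM) and 1 of 8 stellate cell markers (COL1A1) were. The pan-leukocyte gene PTPRC and the macrophage receptor CSF1R had means of 3.80 and 5.73, within the background range. The arrays numbered 1, 1 in each treatment, stood apart from the other 4, and the treatment differences of the members are also given without them where they moved by over 0.1.

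TFEC, which lies on chromosome 7, did not separate POSTN-treated from control cells and had its low values on the 2 arrays numbered 1. Its brightest probe set, 206715_at, read 10.42, 12.33 and 12.40 with POSTN (numbers 1, 2 and 3), against 10.36, 12.41 and 12.37 in control cells. The array numbered 1 was the low one in both groups, and the other 4 lay within 0.085 of each other. Means were 11.72 ± 1.12 with POSTN and 11.72 ± 1.17 in control cells (SD, n = 3 each).

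The second TFEC probe set, 232383_at, read 9.44, 10.71 and 10.61 with POSTN, against 9.28, 10.77 and 10.61 in control cells. Again number 1 was the low array in both groups. The third and dimmest, 236995_x_at, read 6.62, 7.91 and 7.59 with POSTN, against 6.46, 8.27 and 7.07 in control cells. Here numbers 2 and 3 spread more widely, between 7.07 and 8.27, yet both arrays numbered 1 were still below them. The suffix _x_at marks probe sets that can cross-hybridise with other transcripts.

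Between treatments the 3 TFEC probe sets differed by 0.00031 (SE 0.60), 0.03 (SE 0.41) and 0.10 (SE 0.47), POSTN minus control. Compared within replicate numbers, the brightest differed by 0.06, -0.08 and 0.03 for numbers 1, 2 and 3, with an SE of 0.06 in a fit with the number as a block. Without both arrays numbered 1, its difference was -0.03. Between numbers, TFEC was lower on the arrays numbered 1, and number 1 minus numbers 2 and 3 was -1.98 (SE 0.06) for 206715_at, or 3.95-fold lower on the linear scale. It was -1.31 (SE 0.09) for 232383_at and -1.17 (SE 0.32) for 236995_x_at, or 2.49-fold and 2.25-fold lower. The step was present in both treatments. In such bulk RNA, fewer cells that express a gene and less of its RNA per cell cannot be told apart. Within the POSTN arrays 206715_at differed by -1.94 and within the control arrays by -2.03, number 1 minus numbers 2 and 3.

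A fall as large as that of 206715_at occurred in 1270 of 54613 probe sets, most of them dim, and in 28 of the 25320 above background. In the limma fit over all probe sets, with an adjusted p under 0.05 by Benjamini-Hochberg, 5.62% of probe sets were called between number 1 and numbers 2 and 3 and 2.71% were called lower. Of the 12 family probe sets, 2 were called, TFEC 206715_at and 232383_at, and both were lower, a contrast that was also used to choose them. Number 1 was set against the others after its values were known, and the count therefore describes the arrays. It depended on how the variance was modelled and on the arrays numbered 1, with 3069 probe sets called in all, 0 without a variance trend (6261 at an unadjusted p under 0.05), 657 without the POSTN array numbered 1, 718 without the control array numbered 1 and 2089, 1869, 3073 and 2349 without POSTN 2, POSTN 3, control 2 and control 3.

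**Figure D1:**
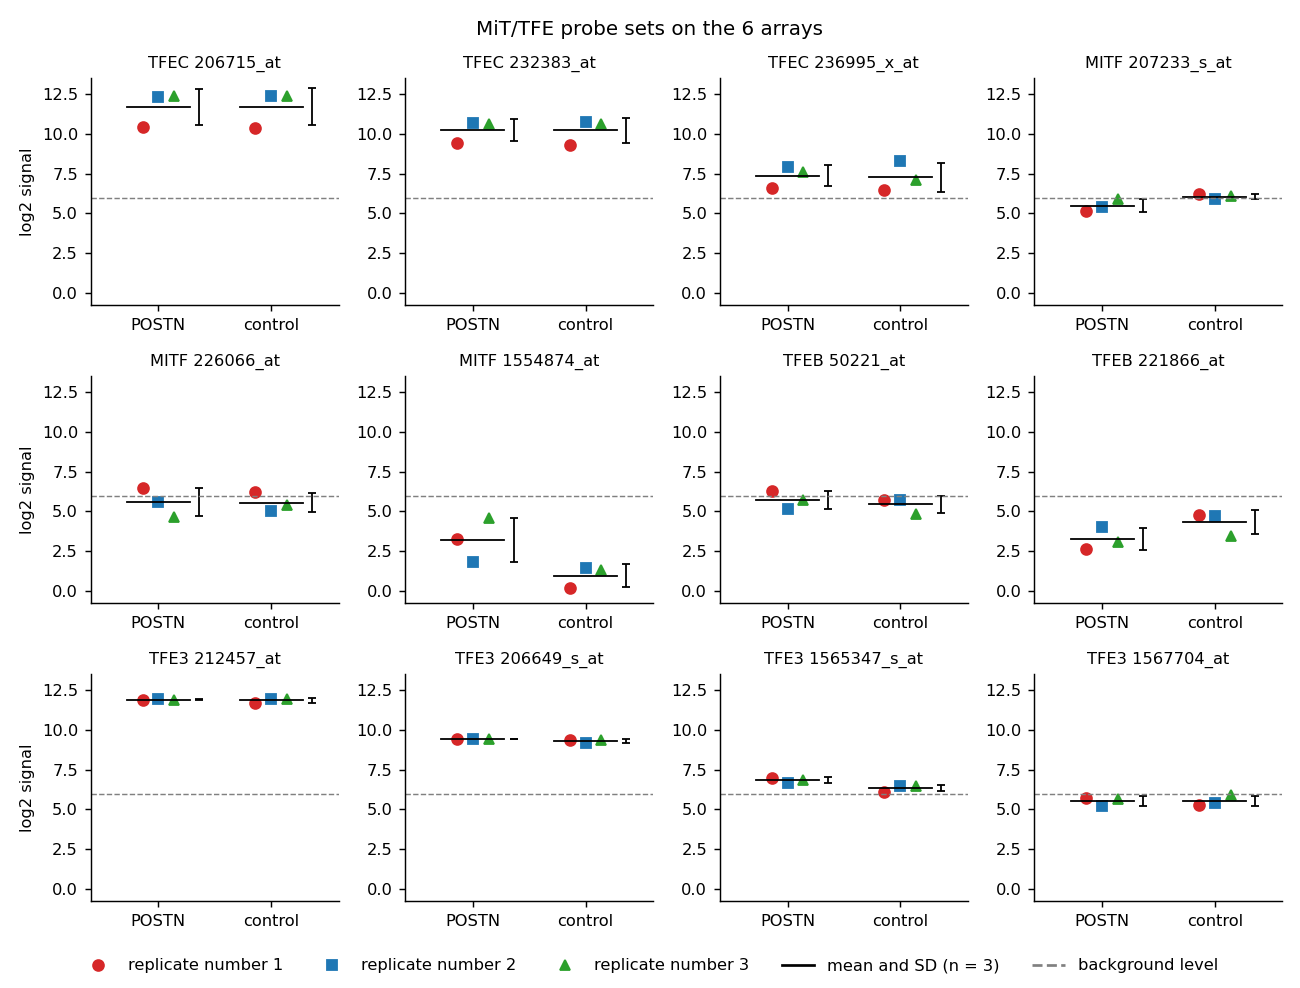
Log2 signal (y axis) of the 12 probe sets of TFEC, MITF, TFEB and TFE3 in POSTN-treated (left) and control (right) cells, 1 point per array with the replicate number by colour and shape; horizontal lines are means, bars beside them SDs (n = 3), and the dashed line marks background (5.98). The 2 arrays numbered 1 are the low ones in all 3 TFEC panels, and the means of the MITF and TFEB probe sets over the 6 arrays lie below background, with 5 single points above it.

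TFE3, on the X chromosome, is the family member that drives lysosomal genes alongside TFEB in many cell types, and it was the other member with signals above background. Its brightest probe set, 212457_at, read 11.87, 11.97 and 11.88 with POSTN, against 11.67, 11.96 and 11.95 in control cells. All 6 arrays lay within 0.29, and the groups overlapped. The difference was 0.05 (SE 0.10), POSTN minus control.

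The TFE3 probe set 206649_s_at read 9.45, 9.43 and 9.42 with POSTN, against 9.39, 9.17 and 9.39 in control cells. The 3 POSTN arrays were all above the 3 control arrays, by a difference in means of 0.12 (SE 0.12). The dimmer 1565347_s_at read 6.99, 6.63 and 6.84 with POSTN, against 6.12, 6.45 and 6.47 in control cells. Here too the groups did not overlap, with a difference of 0.48 (SE 0.31), and 0.28 without both arrays numbered 1. The fourth probe set, 1567704_at, was within the background range at 5.70, 5.19 and 5.67 with POSTN and 5.29, 5.37 and 5.89 in control cells. Its difference was 0.0052 (SE 0.48), or -0.20 without both arrays numbered 1.

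By number, TFE3 had values closer to 0 than those of TFEC, and this gap was not tested. The differences of number 1 minus numbers 2 and 3 were -0.17 (SE 0.07) for 212457_at, 0.07 (SE 0.11) for 206649_s_at and -0.04 for both dimmer probe sets (SE 0.32 for 1565347_s_at and 0.54 for 1567704_at). The control array numbered 1, at 11.67, carried most of the first value. Within the POSTN arrays 212457_at differed by -0.05, and within the control arrays by -0.28.

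MITF, on chromosome 3, had no probe set with a mean above background. The brightest, 207233_s_at, read 5.13, 5.43 and 5.90 with POSTN, against 6.19, 5.88 and 6.10 in control cells. The highest POSTN array lay just above the lowest control array, and the difference was -0.57 (SE 0.44), or -0.32 without both arrays numbered 1. The second, 226066_at, read 6.48, 5.59 and 4.67 with POSTN, against 6.24, 5.02 and 5.41 in control cells. These groups overlapped fully, with a difference of 0.03 (SE 0.60), or -0.08 without both arrays numbered 1, while both arrays numbered 1 were the high ones, by 1.19 (SE 0.54) over numbers 2 and 3.

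The third MITF probe set, 1554874_at, was far down in the background range, at 3.27, 1.80 and 4.57 with POSTN, against 0.14, 1.44 and 1.27 in control cells. The groups did not overlap, with a difference of 2.26 (SE 0.96), a fold of 4.80, and 1.83 without both arrays numbered 1. The study's thresholds were a fold change above 2 or below 0.5 and an unadjusted p under 0.05. By the methods' t-test 0 of the 12 met these thresholds, on log2 or on linear values, where 2.09% of all probe sets met them on log2 values. With limma's unadjusted p in its place 1 of the 12 did, this one, where 2.56% of all probe sets did. On the scale of log2(value + 50), which damps differences between dim signals, its difference was 0.25.

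TFEB, on chromosome 6, was likewise within the background range. Its probe set 50221_at read 6.31, 5.18 and 5.73 with POSTN, against 5.74, 5.73 and 4.82 in control cells, and 221866_at read 2.66, 4.04 and 3.09 with POSTN, against 4.75, 4.73 and 3.46 in control cells. Both pairs of groups overlapped. The differences, POSTN minus control, were 0.31 (SE 0.53) for 50221_at and -1.05 (SE 0.83) for 221866_at. Single arrays set much of the first. It was 0.0019 without the control array numbered 3, 0.02 without the POSTN array numbered 1, and 0.17 without both arrays numbered 1. The second stayed between -1.48 and -0.75 with 1 array left out, and was -0.53 without both arrays numbered 1. By number, 50221_at was 0.66 (SE 0.54) higher on the arrays numbered 1, and 221866_at differed by -0.13 (SE 0.98).

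Over the family, the POSTN arrays lay wholly above the control arrays in 3 of 12 probe sets (MITF 1554874_at, TFE3 206649_s_at and TFE3 1565347_s_at) and wholly below them in 0 of 12. Over all probe sets these shares were 4.31% and 3.63%. Both arrays numbered 1 were below the other 4 in 4 of 12 (the 3 of TFEC and TFE3 212457_at) and above them in 2 of 12 (MITF 226066_at and TFEB 50221_at), where 12.7% and 13.6% of all probe sets were. In the limma fit of POSTN against control, 0 of 54613 probe sets had an adjusted p under 0.05, a share of 0%. At an unadjusted p under 0.05 limma gave 1649, or 2601 with a replicate block. The methods' t-test gave 1976, and likewise 0 after adjustment.

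**Figure D2:**
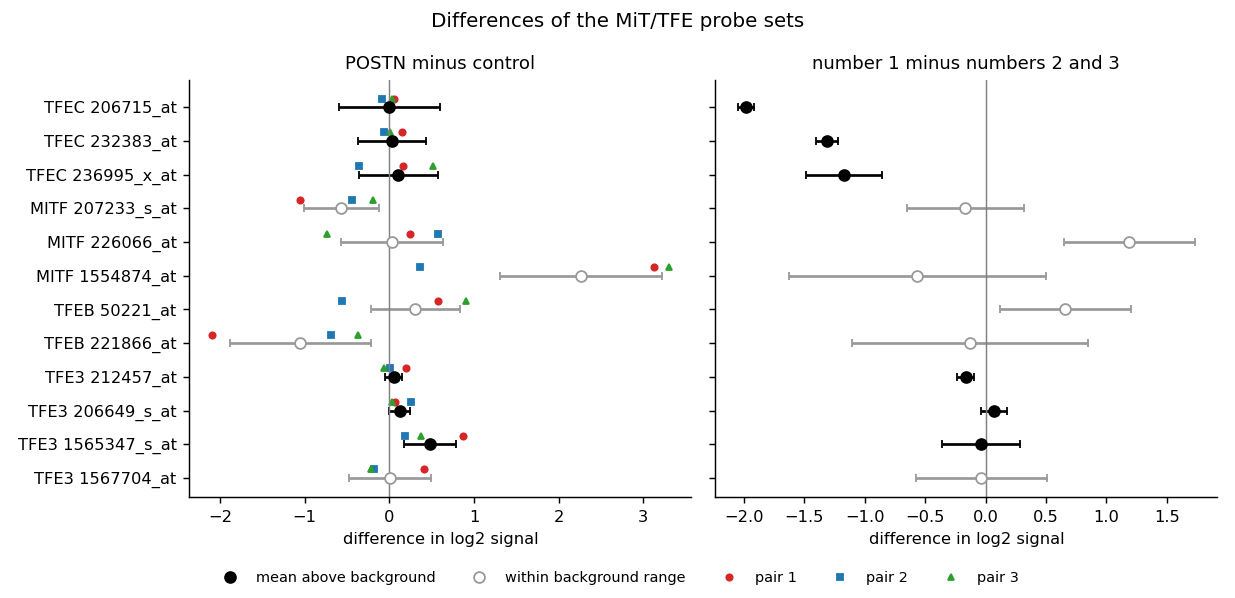
Differences in log2 signal of the 12 probe sets, POSTN minus control (left panel) and number 1 minus numbers 2 and 3 (right panel), with bars of 1 SE; small coloured marks on the left are the differences within each replicate number, filled points have a mean above background and open points do not. TFEC lies at 0.00031 to 0.10 in the left panel and at -1.17 to -1.98 in the right. The widest bars are those of MITF 1554874_at and TFEB 221866_at, the dimmest probe sets.

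Targets, nutrient-sensing regulators and relatives of the family were read from lists drawn up with earlier results of these data known, with the brightest probe set per gene, and 123 genes of the lists were measured. In POSTN-treated against control cells limma called 0 of these 123 by an adjusted p under 0.05. At an unadjusted p under 0.05 there was 1, DCSTAMP, a fusion receptor of osteoclasts, named after its value was seen and within the background range (a mean of 3.51 over the 6 arrays). Among lysosomal enzymes above background, POSTN minus control ranged between -0.27 for MANBA, the lysosomal beta-mannosidase, and 0.49 (SE 0.56) for CTSF, a cysteine protease. The control array numbered 2, at 4.50, set the CTSF value, which was -0.15 without it. The median over the 25 measured enzymes was -0.01, as against -0.0078 over the brightest probe sets of all genes above background. The autophagy gene GABARAPL1, which makes a coat protein of autophagosomes, read 7.996, 7.88 and 7.58 with POSTN, against 7.41, 7.32 and 7.65 in control cells. One control array lay among the POSTN values, and the difference was 0.36 (SE 0.21). LAMP2, a main protein of the lysosomal membrane, differed by 0.12 (SE 0.09), MCOLN1, its calcium channel, by -0.22 (SE 0.20), and FNIP1, a partner of folliculin in nutrient sensing, by 0.20 (SE 0.17).

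Between number 1 and numbers 2 and 3, where the TFEC step lay, 21 of the 123 listed genes were called in the same fit, 6 higher and 15 lower. Of the 123, 106 had a mean above background, and these held all 21 calls. Over all 11550 genes above background, 15.1% of the brightest probe sets were called. After quantile normalization the split was 8 higher and 10 lower, and after median centring 4 higher and 6 lower. The count was 0 without a variance trend, 4 without the POSTN array numbered 1, 5 without the control array numbered 1, and 11, 9, 19 and 15 without POSTN 2, POSTN 3, control 2 and control 3. Of 10 hepatocyte and hepatoma markers, 4 were called higher on number 1 (ALB, SERPINA1, FGB and TF, the last by 2.83) and 0 lower. By sign, 6 of the 10 were higher and 4 lower, among the latter APOB by -0.65 and TTR by -0.44, neither called. SERPINA1 had a mean of 5.86 over the 6 arrays and ALB one of 5.94 over numbers 2 and 3, both within the background range. The linear signal of the 10 summed to 47944 and 51818 on the arrays numbered 1 and to 50253 to 55108 on the others, most of it from KRT8 and KRT18, and the other 8 summed to 3385 and 3110 on the arrays numbered 1 and to 1055 to 1131 on the others. Of the 9 macrophage markers, 0 were called by number and only ITGAM was above background. Their signals summed to 876 and 643 on the arrays numbered 1 and 457 to 579 on the others. The part of either difference in the TFEC step or in the calls below was not tested.

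Of 25 lysosomal enzymes, 2 rose and 3 fell on number 1 (20%). TPP1, a tripeptidyl peptidase, was 0.32 higher (SE 0.07, limma adjusted p = 0.0151) and CTSA, the protective protein of neuraminidase, 0.26 higher (adjusted p = 0.0375). LGMN, the asparaginyl endopeptidase, fell by 0.48 (adjusted p = 0.0326), and the cysteine cathepsins CTSL and CTSB fell by 0.29 and 0.25 (adjusted p = 0.0438 and 0.0245). CTSD, the aspartic cathepsin, had a difference of 0.31 that was not called. The median of the list was 0.15, and 18 of its 25 genes had a value above 0. The median was 0.010 over the brightest probe sets of all genes above background.

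Of 23 genes of the lysosomal membrane and its proton pump, 0 rose and 4 fell (17.4%). NPC1, which exports cholesterol from the lysosome, read 12.91, 13.36 and 13.45 with POSTN, against 13.03, 13.42 and 13.55 in control cells. Number 1 was the low array in both groups, and the signal fell by 0.47 (SE 0.06, limma adjusted p = 0.000881). The pump subunits ATP6V1B2 and ATP6V1H fell by 0.40 and 0.29 and the tetraspanin CD63 fell by 0.20 (adjusted p = 0.00545, 0.0245 and 0.0430). The median over the list was -0.07.

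Of 18 autophagy genes, 1 rose and 1 fell (11.1%). SQSTM1, the cargo receptor p62, read 14.22, 13.73 and 13.66 with POSTN, against 14.27, 13.81 and 13.73 in control cells. It was the reverse of TFEC, with number 1 high in both groups by 0.52 (SE 0.05, limma adjusted p = 0.000216). MAP1LC3B, the LC3 protein of the autophagosome membrane, fell by 0.27 (adjusted p = 0.0279). UVRAG, which activates the lipid kinase of autophagosome formation, had a difference of -0.39 that was not called (adjusted p = 0.101).

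Of 23 regulators that pass nutrient signals to the family, 1 rose and 3 fell (17.4%). RPTOR, the mTORC1 subunit that presents substrates, fell by 0.60 (SE 0.15, limma adjusted p = 0.0343). PPP3CA, the catalytic subunit of calcineurin, which dephosphorylates TFEB, fell by 0.36 (adjusted p = 0.0454), and RHEB, the GTPase that activates mTORC1, fell by 0.21 (adjusted p = 0.0292). LAMTOR4, a part of the Ragulator scaffold on lysosomes, was 0.28 higher (adjusted p = 0.0461).

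Of 20 genes known as targets of MITF relatives in pigment cells, osteoclasts and tumours, 0 rose and 3 fell (15%). Only 8 of the 20 were above background, and all 3 calls were among them. The 15% counts all 20, while the 15.1% over all genes counts only those above background. CDKN1A, the cyclin-dependent kinase inhibitor p21, read 9.44, 10.25 and 10.24 with POSTN, against 8.998, 10.29 and 10.26 in control cells. Number 1 was low in both groups, and the signal fell by 1.04 (SE 0.11, limma adjusted p = 0.000292). RAB27A, a GTPase of melanosome transport, fell by 0.41 (adjusted p = 0.00716) and HIF1A, the oxygen-regulated transcription factor, fell by 0.34 (adjusted p = 0.00256). GPNMB, a lysosomal glycoprotein often used as a readout of MITF and TFE3, had a difference of -0.27 (SE 0.09) that was not called.

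The calls differed in how well they held. In 13 fits that include the one above and its alternatives (12 where a probe set ending in _s_at or _x_at left 1 of them), CDKN1A and SQSTM1 were called the same way in 11 of 12 and NPC1 and HIF1A in 11 of 13. ATP6V1B2 was called in 10 of 13, RAB27A in 9 of 12, TPP1 in 8 of 12 and ATP6V1H in 6 of 12. LGMN was called in 5 of 13 and MAP1LC3B in 5 of 12, and the remaining named calls of these lists in 3 or 4.

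The 11 listed genes whose promoter held TCACGTGA had differences by number on both sides of 0. Of the 11, 1 was called higher (CTSA) and 0 lower, with a median of 0.11 and a range between -0.09 for LAMP1 and 0.26 for CTSA. Of the genes whose sites are printed above, GAA differed by 0.20, SCPEP1 by 0.20, MCOLN1 by 0.23, ATP6V0D1 by -0.02 and TSC2 by 0.17, number 1 minus numbers 2 and 3. The genes whose sites are not printed had lower values than most of these. They were 0.11 for GALNS, 0.07 for RRAGB, 0.02 for VPS11, -0.06 for NRBF2 and -0.09 for LAMP1. Between treatments the 11 lay between -0.23 and 0.10, POSTN minus control, with a median of 0.03.

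**Figure D3:**
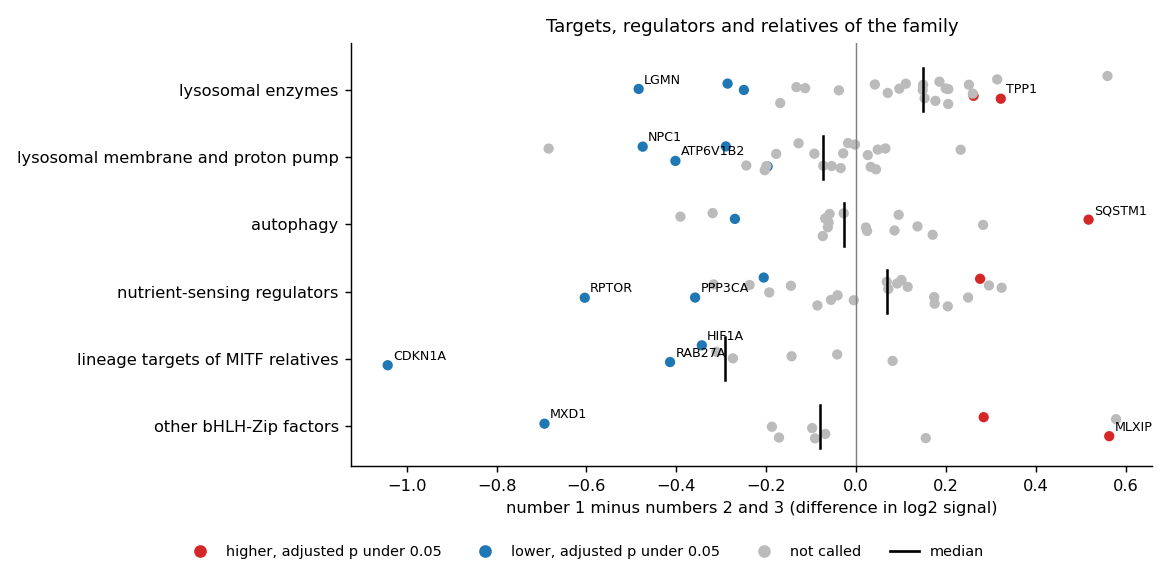
Difference in log2 signal between number 1 and numbers 2 and 3 (x axis) for listed genes above background, 1 point per gene and 1 row per list, red where called higher, blue where called lower and grey where not called; vertical bars are list medians and the vertical spread within a row is only for legibility. CDKN1A at -1.04 and MXD1 at -0.69 lie farthest to the left among the called genes, and SQSTM1 at 0.52 and MLXIP at 0.56 farthest to the right.

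Genes beside TFEC on chromosome 7 had small differences by number. By the RefSeq annotation 7 protein-coding genes lie within 1 Mb of TFEC, and 6 were measured with signals above background on all 6 arrays, while ST7 was not analysed here. Number 1 minus numbers 2 and 3 was -0.05 for MDFIC, a protein with a MyoD family inhibitor domain, -0.10 for TES, a focal adhesion protein, and -0.16 for CAV2 and -0.11 for CAV1, the caveolins. It was -0.14 for MET, the hepatocyte growth factor receptor, and -0.06 for CAPZA2, an actin capping protein. None of the 6 was called in the limma fit, with adjusted p of 0.258 to 0.711. All 6 were among the bright probe sets of the arrays, with means of 14.002 to 15.784, where the highest signal on any array was 15.90.

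**Figure D4:**
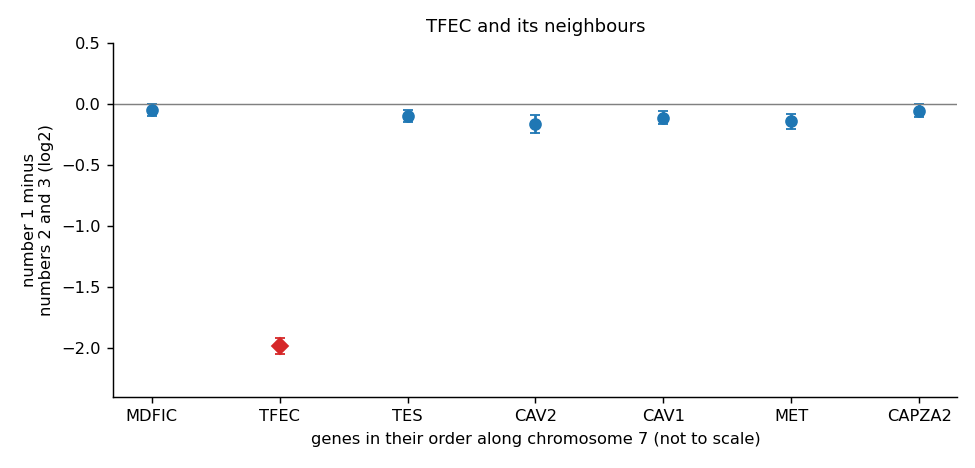
Difference in log2 signal, number 1 minus numbers 2 and 3 (y axis, bars of 1 SE), for TFEC 206715_at (red diamond) and the 6 measured genes within 1 Mb of it (blue circles), in their order along chromosome 7. TFEC lies at -1.98 and its neighbours between -0.16 and -0.05.

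Likeness to TFEC was measured as Pearson's r with 206715_at over the 6 arrays, among 526 probe sets of 496 genes. These had a mean over the 6 arrays above background and ranged over at least 2 on the log2 scale. The 6 arrays fall into number 1 and the rest, and TFEC varied by 0.085 within the rest, so r describes this step and no p is given. Of the 526 probe sets, 30 had an r above 0.9 and 67 an r below -0.9. The highest were SOCS2, an inhibitor of cytokine signalling (0.999), TAGLN, an actin-binding protein (0.996), CXCL8, the neutrophil chemokine (0.995), and the matrix molecules TNC (0.994) and VCAN (0.993). SOCS2 read 7.75, 10.49 and 10.52 with POSTN, against 7.67, 10.51 and 10.59 in control cells. Like TFEC it was low on both arrays numbered 1 and did not separate the treatments.

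The lowest r belonged to the iron carrier TF (-0.998), the growth factor binding protein IGFBP3 (-0.998), the kinase PRKCB (-0.996), the surface glycoprotein CD24 (-0.996) and the heparan sulfate sulfatase SULF2 (-0.996). CD24 read 10.48, 5.61 and 5.55 with POSTN, against 10.64, 5.74 and 6.18 in control cells, and was high on number 1 in both groups. Its mean over numbers 2 and 3 was 5.77, within the background range, so it passed the filter only through the arrays numbered 1. The CD24 and VCAN probe sets end in _x_at and can cross-hybridise with other transcripts. Of the TFEC probe sets, 232383_at had an r of 0.995 and 236995_x_at one of 0.838 with 206715_at.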

How the data were processed

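Total RNA of 6 samples was labelled with biotin and hybridized to 1 array each. The authors computed MAS 5.0 signals with the affy package in R (versions not given in the sources used here) and deposited them as log2 values. The mean linear signal without the highest and lowest 2% is 500.0 on every array, and MAS 5.0 subtracts background, which makes log2 values of dim probe sets noisy. Array medians were 5.80 to 5.95. The table holds 54675 probe sets, of which 62 Affymetrix controls were left out, and 0 columns stayed unused. The array annotation gives 41091 probe sets 1 symbol, 1801 several and 11721 none, and genes were named from the first kind only. The number of arrays limits the precision.

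Differences were fitted in R 4.3.3 with limma 3.58.1 (lmFit, eBayes with a variance trend) on the deposited values, for POSTN against control without covariates and for number 1 against numbers 2 and 3 with treatment as covariate, with Benjamini-Hochberg adjustment over all 54613 probe sets. A call is an adjusted p under 0.05. The members and the gene lists were chosen with earlier results of these data known, so nothing in them is independent evidence. All member probe sets are given, and of each list the largest rises and falls above background (up to 4 each way by number, 2 by treatment) were candidates, of which a part, with every called gene, was named after the values had been seen. Also named were the measured neighbours within 1 Mb and the 5 genes most and 5 least like TFEC. List genes without a probe set that carries 1 symbol here were not analysed here.

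The labels give both groups numbers 1, 2 and 3. The deviations of same-numbered arrays had correlations of 0.088, 0.034 and 0.025 when every probe set was used, and of 0.529, 0.235 and 0.239 among the 25320 above background. From this second set the numbers were read as pairs, a reading that rests on the data and not on the labels, and mainly on number 1. Unlike numbers came close, with 0.201 for POSTN 3 with control 2 and 0.150 for POSTN 2 with control 3. The replicate block, quantile normalization, median centring, log2(value + 50), filters on dim and on _x_at and _s_at probe sets, no variance trend, leaving out arrays, an F-test over the numbers and the methods' t-test (unpaired, equal variances) were alternatives. The fits were tested on simulated data. Promoter sequences are RefSeq's (GRCh38.p14). The build behind the probe annotation is not given in the sources used here, so the only coordinates printed are those of RefSeq promoter sites.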

Additional observations from a re-analysis of the deposited data

How the results depend on the processing

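No probe set was called between POSTN and control in any setting run by limma or the methods' t-test, with 318 to 2601 at an unadjusted p under 0.05. At the methods' fold and unadjusted p, with limma's p, 1398 probe sets were counted, against 1139 (log2 values) and 1067 (linear values) when the methods' t-test gave the p, 1919 without a variance trend, 14 with log2(value + 50), 49 among probe sets above background and 88 with the replicate block among those (chosen after seeing the data). The replicate block alone gave 1463, and leaving out 1 array gave 1314 to 1530. Between number 1 and numbers 2 and 3 the count of 3069 became 1750 without _x_at and _s_at probe sets and 0 without a variance trend, 4167 of 25320 above background, and 657 to 3073 with 1 array left out. The F-test over the 3 numbers gave 2230. The 21 listed genes became 10 with median centring, 13 with log2(value + 50), 9 without _x_at and _s_at probe sets and 0 without a variance trend, 29 of 106 above background, and 4 to 19 with 1 array left out. Filters leave fewer probe sets, yet the filter on dim probe sets raised both counts by number while it lowered the one at the methods' thresholds. The causes of these changes were not tested. For TFEC 206715_at, number 1 minus numbers 2 and 3 stayed between -2.03 and -1.94 over its settings. Pairing by number left 0 probe sets called between POSTN and control. With 3 arrays a group, and MITF and TFEB within background, small changes of these genes were not detectable.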

Other observations

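Other factors of the same basic helix-loop-helix leucine zipper class bind related E-boxes, and 14 of the 15 listed were measured. On the arrays numbered 1, 2 of the 14 rose and 1 fell (21.4%), all of them among the 10 above background. Over all probe sets 5.62% were called, and 15.1% of the brightest probe sets of genes above background. The 21.4% counts all 14 genes, with the dim ones. MXD1, an antagonist of MYC, read 9.60, 10.22 and 10.16 with POSTN, against 9.47, 10.32 and 10.22 in control cells, and fell by 0.69 on number 1 (SE 0.09, limma adjusted p = 0.00126). MLXIP, a sensor of glucose metabolites, read 10.98, 10.41 and 10.56 with POSTN, against 11.04, 10.36 and 10.45 in control cells, and was 0.56 higher on number 1 (adjusted p = 0.00247). MYC was 0.28 higher (adjusted p = 0.0149), and SREBF1, a regulator of lipid synthesis, had a difference of 0.58 that was not called (adjusted p = 0.0632). In POSTN-treated against control cells none of the 14 was called by limma, and none had an unadjusted p under 0.05. The difference was -0.23 (SE 0.12) for MNT, a repressor that pairs with MAX, and 0.10 (SE 0.11) for MLX.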
